A study of Mus musculus with 7 samples.

Results

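The 60 genes described here encode proteins of mitosis, the spindle and cytokinesis, from the cyclins that start mitosis to the proteins that cleave the cell. They were found by matching gene symbols in the deposited count table, where each of the 60 matched 1 of 57010 genes, and all 60 were among the 15981 genes that passed the filter on low counts. RNA came from Tim4+ resident macrophages of C57BL/6 mice, sorted alive from peritoneal fluid after staining for Tim4, CD11b and MHC class II, in a study of peritoneal colorectal cancer. The steady-state group held 3 libraries (replicates 1 to 3) of control mice, and the day 12 group held 4 libraries (replicates 1 to 4) of mice 12 days after injection of m204 MTO. What MTO stands for, the age of the mice and the day on which each library was sorted are not in the labels. The protocol text speaks of biological replicates and gives 3 per condition, while the titles give 4 for day 12, and p-values here measure the spread between these libraries.

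Most of these genes are silent in resting cells and are switched on together late in the cell cycle. The DREAM complex, built on the MuvB core, keeps them off, and the same core joined to B-MYB and FOXM1 turns them on in the G2 phase. Their transcripts therefore mark cells that are about to divide or dividing, and resident peritoneal macrophages are known to maintain their number partly by dividing in place. In RNA of a whole sorted population, fewer dividing cells and less of these RNAs per cell cannot be told apart.

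Library totals ran from 32077050 to 38586694 counts, so that 3 reads were worth 0.0777 to 0.0935 CPM (read counts scaled to a common library size). Values below are CPM after TMM scaling, listed in the order of the replicates. Of the genes tested, 20.3% passed an adjusted p of 0.05 between day 12 and steady state in edgeR's quasi-likelihood test with Benjamini-Hochberg adjustment, 10.1% higher and 10.2% lower at day 12, and the median log2 fold change over all of them was 0.00309. Of the macrophage markers behind the label, Timd4, the gene of the sort marker Tim4, stood at 964.6, 882.4 and 1043 CPM in steady state and at 525.9, 643.1, 412.2 and 399.1 CPM at day 12. Adgre1, the F4/80 gene, stood between 2471 and 2766 CPM and between 3919 and 5203 CPM, so both were abundant in every library. Of the 10 resident macrophage markers listed, 4 were called higher and 3 lower at day 12. Their summed level was 76920 to 86400 CPM in steady state and 53430 to 64950 CPM at day 12. With 0.5 CPM added, the middle marker stood at 109%, 106%, 106% and 122% of its steady-state mean in the day 12 libraries. The sum was thus lower at day 12 while the middle marker was not.

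Of the 60 genes, 4 were called lower at day 12, namely Cdc25b, Cenpa, Ect2 and Racgap1, and 1 was called higher, Espl1. The 5 calls were 8.33% of the members, against 20.3% over the whole table. The fitted log2 fold change lay below 0 for 59 of the 60, against 49.7% of all genes tested, with a median of -1.43. For 46 members it was at or under -1, a count not given here for all genes. Espl1 lay above 0, and Pttg1, at -0.01, turned to 0.01 with library totals and 0.03 with upper-quartile factors in place of TMM. The unadjusted p was under 0.05 with a lower level for 13 members (21.7%), against 17.1% of all genes tested. With 1 library left out, that share of the members ran from 6.67% (without steady-state replicate 1) to 51.7% (without day 12 replicate 2). It was 30.0% in DESeq2 and 78.3% in limma-voom, and the share over all genes in those fits is not given here. Groups without overlap, in either direction, were found for 35.0% of all genes tested. In 10 members (16.7%) every day 12 library lay below every steady-state library, a pattern that 18.5% of all genes tested showed, and in 1 member, Espl1, every day 12 library lay above, as in 16.5% of all genes. The shares of calls and of separated groups were thus no higher in this fit than in the table at large, although nearly all fitted changes pointed down. Leaving out steady-state replicate 1 left 1 lower call, Racgap1 (1.67%, against 5.50% of all genes tested), and a median of -0.90. Leaving out day 12 replicate 2 gave 9 lower calls (15%, against 9.58%), so there the share of lower calls was above that of the table.

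**Figure D1:**
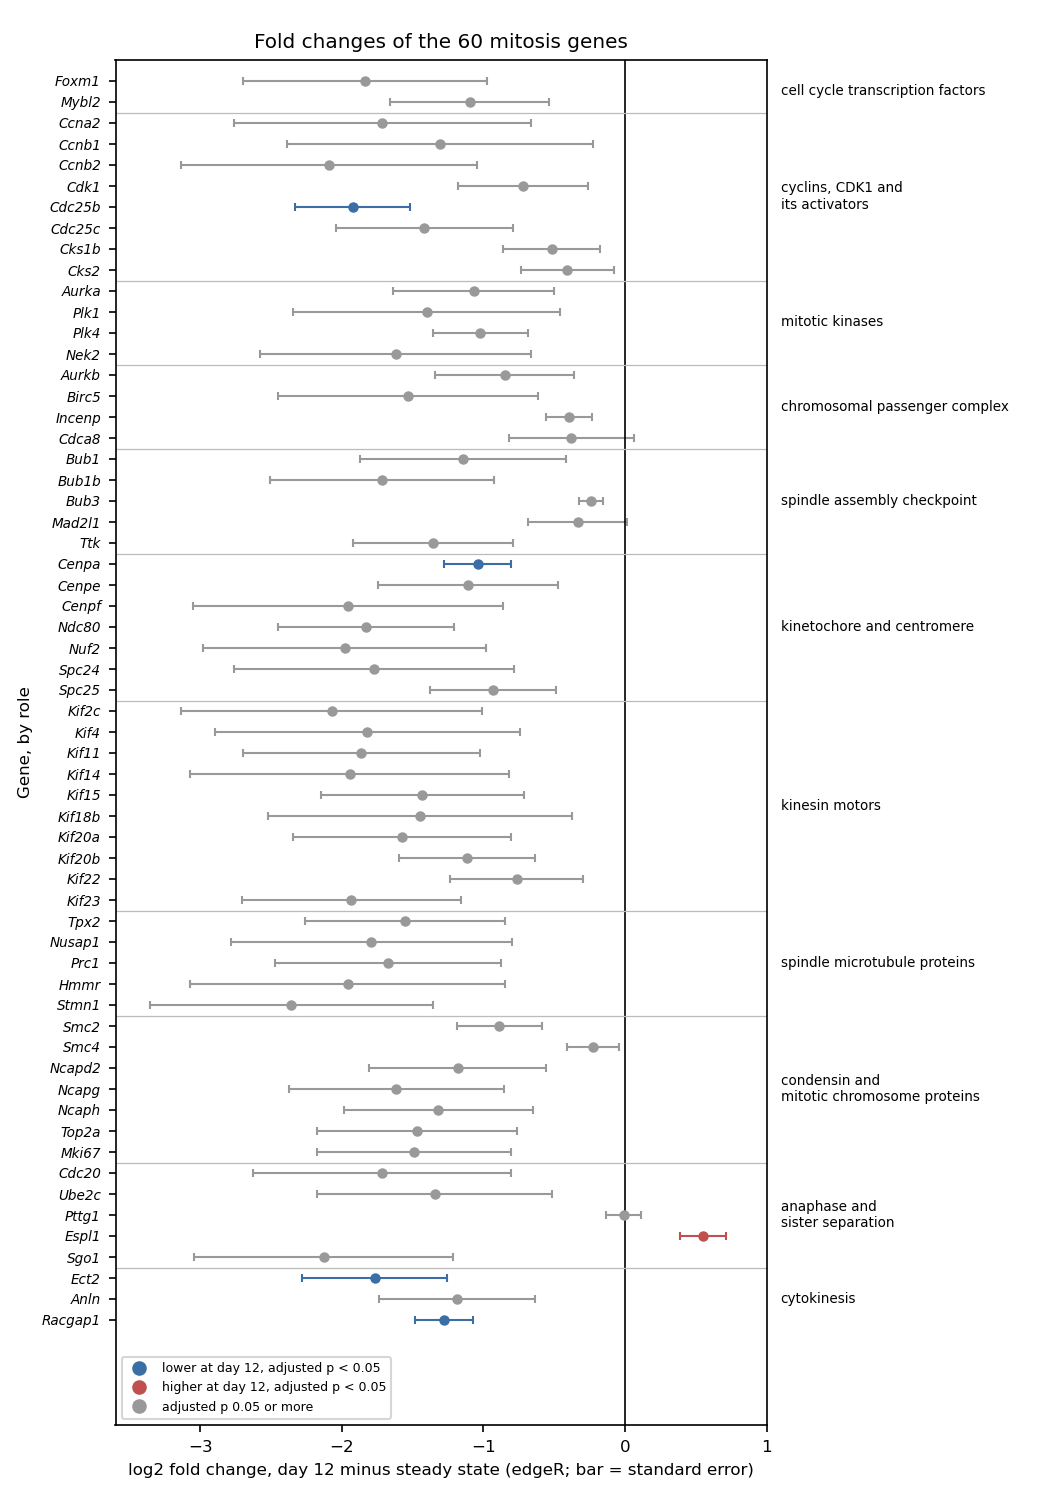
Fitted log2 fold change (horizontal axis, day 12 minus steady state) of the 60 genes, by role (vertical axis), with its standard error as a bar. The coloured points are the 4 genes called lower and the 1 called higher, and 59 of the 60 points lie left of 0.

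The plot of fitted fold changes shows wide standard errors, between 0.09 for Bub3 and 1.13 for Kif14 on the log2 scale. Libraries of 1 group differed strongly in these genes.

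Within steady state the ratio of the highest to the lowest library ran from 1.06 for Bub3 to 4.69 for Ncapg, and within day 12 from 1.1 for Bub3 to 54.3 for Hmmr. With 0.5 CPM added to every value, 47 of the 60 members (78.3%) differed by more than 2-fold between steady-state libraries, against 2.18% of all genes tested, and the median ratio was 2.76 against 1.17. At day 12 the same was true of 50 members (83.3%) against 12.9% of all genes, with a median ratio of 4.72 against 1.45. Between day 12 libraries, 18 members differed by more than 10-fold without the added 0.5 CPM. Some of these ratios rest on few reads in the lowest library, such as 4 for Hmmr and 2 for Sgo1. Over all 7 libraries 56 members spanned more than 2-fold, and 4 (Incenp, Bub3, Smc4 and Pttg1) spanned less. The same counts over all genes tested are not given here.

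The libraries fell in nearly the same order for one gene after another. Steady-state replicate 1 was the highest of the steady-state libraries for 59 of the 60 members (98.3%), all but Pttg1, against 33.9% of all genes tested. Steady-state replicate 3 was the lowest for 55 members (91.7%), against 32.5% of all genes, and the exceptions were Cdc25b, Bub3, Cdc20, Pttg1 and Racgap1. At day 12, replicates 1 and 3 both lay below replicates 2 and 4 for 56 members (93.3%), against 23.5% of all genes, and here Smc4, Pttg1, Espl1 and Racgap1 were the exceptions. Genes measured in 1 library share that library, so these counts describe the libraries and are not independent observations.

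Relative to a gene's steady-state mean, the median member stood at 12.8% in day 12 replicate 1, at 66.8% in replicate 2, at 14.3% in replicate 3 and at 52.0% in replicate 4. Day 12 replicates 1 and 3 each lay below every steady-state library for 56 members, against 38.8% and 40.5% of all genes tested. Replicate 2 did so for only 15 members (25.0%, against 38.3% of all genes) and replicate 4 for 32 (53.3%, against 42.1%). Replicate 2 was the highest day 12 library for 44 members (73.3%, against 24.8% of all genes) and replicate 4 for 15 (25.0%, against 34.8%). The day 12 group thus held libraries with very little RNA of these genes and libraries near the lowest steady-state one.

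**Figure D2:**
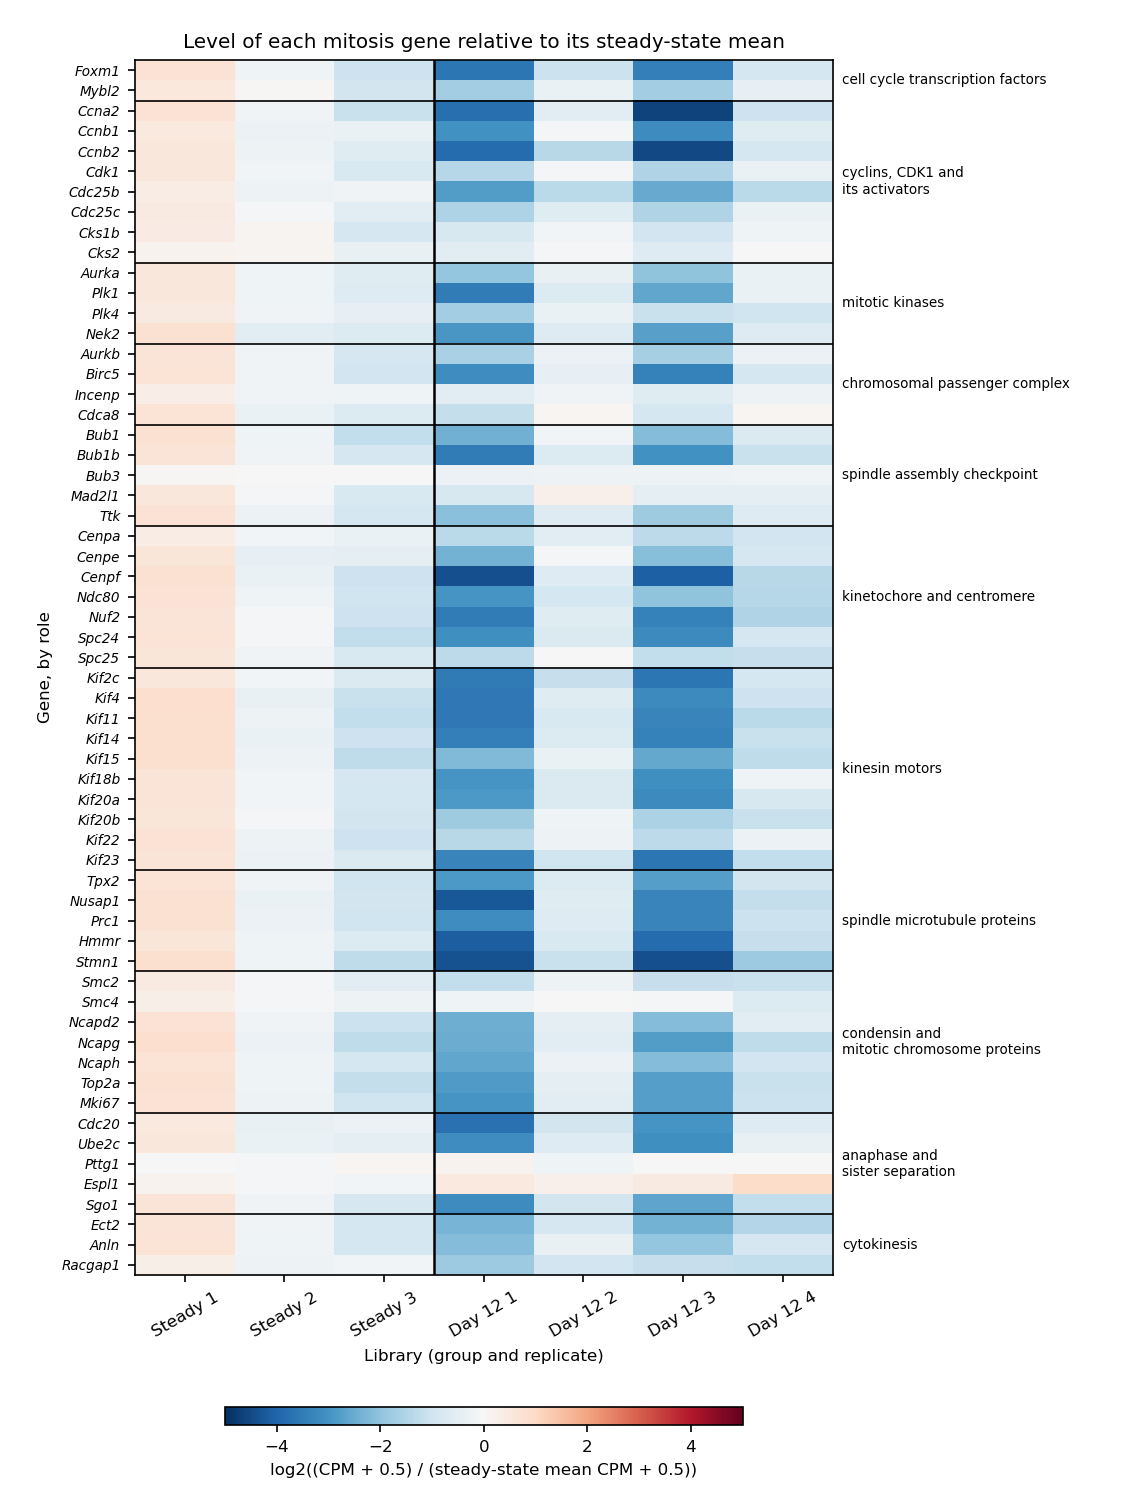
Level of each gene (vertical axis, by role) in each library (horizontal axis), as the log2 ratio to its steady-state mean after adding 0.5 CPM to both (blue is lower, red higher). The columns of day 12 replicates 1 and 3 are the darkest blue, steady-state replicate 1 is red for all but a few genes, and Bub3, Smc4, Pttg1 and Espl1 are pale or red throughout.

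Taken as a sum, reads of the 60 genes made up 0.178%, 0.104% and 0.0763% of the counts in the steady-state libraries and 0.0457%, 0.0936%, 0.047% and 0.0797% in the day 12 libraries. Day 12 replicates 2 and 4 both lay above steady-state replicate 3, so the groups overlapped in the sum.

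The promoters of the 5 called genes are shown because these letters are what the family is known to share: the CCAAT box, which NF-Y binds, and the cell cycle genes homology region (CHR), which the MuvB core binds. Each run is the RefSeq window of 300 bases, 250 before and 50 after the annotated start, on the gene's own strand from 5′ to 3′ in GRCm38.p6. Of the 2 Ect2 windows, whose starts lie 24 bases apart, 1 is shown. Capitals mark every match to CCAAT and to the CHR letters TTTGAA or TTCGAA, on either strand. The windows are chr2:131186698-131186997 (plus strand) for Cdc25b, chr5:30666636-30666935 (plus) for Cenpa, chr3:27153805-27154104 (minus) for Ect2, chr15:99651607-99651906 (minus) for Racgap1 and chr15:102296043-102296342 (plus) for Espl1.
Cdc25b: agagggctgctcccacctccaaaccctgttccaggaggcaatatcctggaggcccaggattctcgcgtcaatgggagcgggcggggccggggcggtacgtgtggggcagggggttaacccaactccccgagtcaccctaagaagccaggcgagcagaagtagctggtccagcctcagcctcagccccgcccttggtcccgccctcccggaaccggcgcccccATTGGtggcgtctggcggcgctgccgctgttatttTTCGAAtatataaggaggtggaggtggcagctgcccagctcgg
Cenpa: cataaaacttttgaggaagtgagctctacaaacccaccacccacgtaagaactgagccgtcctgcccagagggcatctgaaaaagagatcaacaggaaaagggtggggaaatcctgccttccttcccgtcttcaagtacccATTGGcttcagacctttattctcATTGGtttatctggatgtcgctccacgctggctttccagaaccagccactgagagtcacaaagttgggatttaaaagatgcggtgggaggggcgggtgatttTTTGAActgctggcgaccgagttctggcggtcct
Ect2: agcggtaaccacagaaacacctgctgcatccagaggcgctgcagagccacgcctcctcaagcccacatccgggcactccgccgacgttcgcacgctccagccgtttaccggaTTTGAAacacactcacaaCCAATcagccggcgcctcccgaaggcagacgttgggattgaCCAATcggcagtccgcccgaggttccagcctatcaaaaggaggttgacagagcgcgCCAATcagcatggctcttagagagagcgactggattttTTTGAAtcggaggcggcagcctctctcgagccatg
Racgap1: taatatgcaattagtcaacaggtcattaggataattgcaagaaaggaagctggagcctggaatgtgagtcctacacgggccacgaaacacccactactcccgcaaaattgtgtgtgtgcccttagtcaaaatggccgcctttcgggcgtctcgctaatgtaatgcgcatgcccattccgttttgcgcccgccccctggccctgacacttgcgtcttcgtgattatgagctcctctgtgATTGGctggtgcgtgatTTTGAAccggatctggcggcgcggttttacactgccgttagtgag
Espl1: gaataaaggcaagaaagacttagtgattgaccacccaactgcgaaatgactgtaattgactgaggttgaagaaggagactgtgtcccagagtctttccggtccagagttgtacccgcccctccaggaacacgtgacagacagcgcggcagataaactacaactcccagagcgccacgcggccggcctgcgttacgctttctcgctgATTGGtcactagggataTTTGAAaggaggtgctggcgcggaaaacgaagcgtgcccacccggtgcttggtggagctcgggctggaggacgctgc
All 5 windows held both kinds of match. Counted from the start, the first CHR match downstream began at base 8 in Cdc25b, 17 in Cenpa, 16 in Ect2 and 6 in Racgap1, and in Espl1 the match lay at -27. Espl1, the gene that was higher at day 12, held both kinds of match, like the 4 that were lower.

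A further 3 windows, chosen after the values were seen, come from the gene with the widest use as a proliferation marker, from a cyclin whose groups did not overlap, and from a member whose libraries followed the common order in neither group. They are chr7:135716330-135716629 (minus strand) for Mki67, chr9:70421505-70421804 (minus) for Ccnb2 and chr11:43425932-43426231 (minus) for Pttg1.
Mki67: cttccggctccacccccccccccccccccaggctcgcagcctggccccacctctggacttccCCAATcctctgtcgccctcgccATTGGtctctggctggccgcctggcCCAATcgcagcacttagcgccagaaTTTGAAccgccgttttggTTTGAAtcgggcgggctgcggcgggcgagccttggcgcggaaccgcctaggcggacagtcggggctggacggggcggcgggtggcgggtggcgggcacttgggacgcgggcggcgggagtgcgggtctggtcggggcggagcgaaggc
Ccnb2: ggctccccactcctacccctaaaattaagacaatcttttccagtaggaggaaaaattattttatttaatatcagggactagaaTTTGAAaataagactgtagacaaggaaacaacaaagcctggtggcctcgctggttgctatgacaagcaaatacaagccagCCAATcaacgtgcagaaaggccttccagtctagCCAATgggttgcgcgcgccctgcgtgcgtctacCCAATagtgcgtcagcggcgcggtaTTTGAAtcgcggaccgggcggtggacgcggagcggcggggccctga
Pttg1: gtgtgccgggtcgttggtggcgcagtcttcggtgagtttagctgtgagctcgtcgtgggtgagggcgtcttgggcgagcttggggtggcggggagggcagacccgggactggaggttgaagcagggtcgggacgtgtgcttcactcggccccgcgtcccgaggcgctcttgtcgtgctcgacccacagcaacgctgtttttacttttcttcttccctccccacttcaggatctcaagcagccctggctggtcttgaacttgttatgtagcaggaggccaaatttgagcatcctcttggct
Mki67 and Ccnb2 each held 3 CCAAT and 2 CHR matches, and the Pttg1 window held neither motif. The absence says only that these letters are not in this window.

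Across the module, 53 windows were found for 50 of the 60 members. CCAAT was in 40 of them (75.5%, 95% Wilson interval 62.4 to 85.1), against 38.1% of the 12895 windows of genes tested and 37.4% of all 32851 windows in the table. The CHR letters were in 41 (77.4%, 64.5 to 86.5), against 14.6% and 19.2%, and both motifs were in 36 (67.9%), against 6.17% and 7.52%. The E2F-like letters TTTGGCGC, TTTCGCGC, TTTCCCGC or TTTGCCGC, on either strand, were in 4 (7.55%, 2.97 to 17.9; Cdk1, Kif15, Ncapd2 and Ncapg), against 3.92% and 2.26%. Matches of different motifs overlapped in 1 place. A match is a description of letters and not a measured binding site, and some members hold more than 1 window.

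In a shorter window from 100 bases before to 50 after the start, the CHR letters were in 69.8% of the member windows against 5.82% of those of genes tested, and CCAAT was in 66.0% against 25.3%. The middle CCAAT match began at -65 and the middle CHR match at -17. The 38 members with CHR letters had a median log2 fold change of -1.44 and the 12 without had -1.21, and for CCAAT the medians were -1.40 over 37 members and -1.32 over 13. No test was run on these differences among the members.

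**Figure D3:**
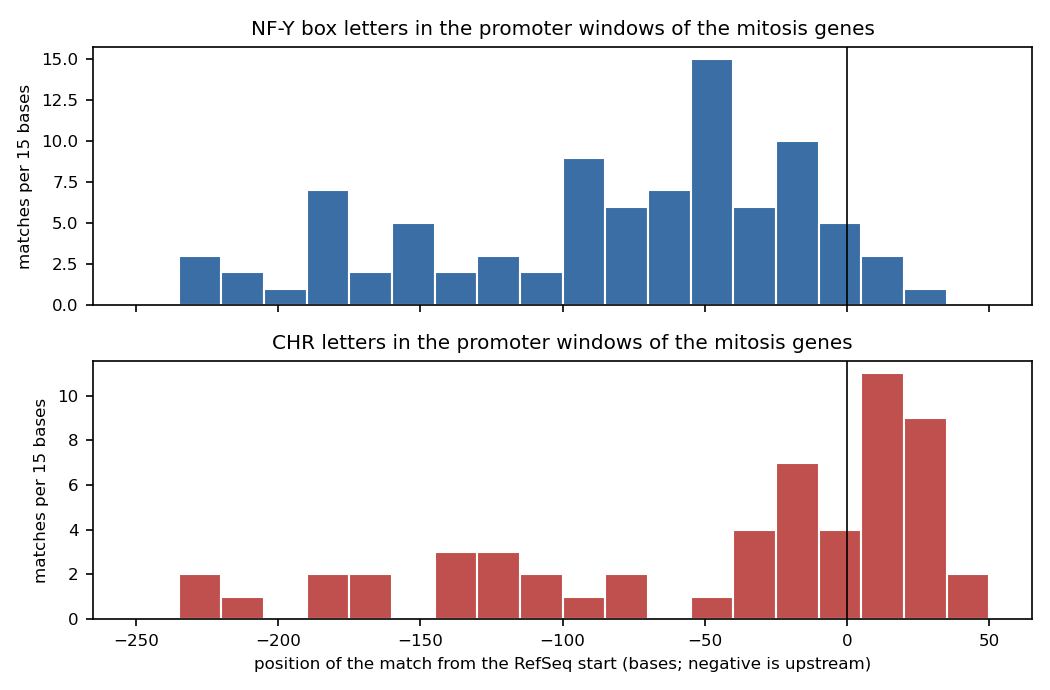
Number of matches (vertical axis, per 15 bases) to the NF-Y box letters (top, CCAAT) and the CHR letters (bottom) by position from the RefSeq start (horizontal axis, in bases) in the 53 windows. The 89 CCAAT matches centre upstream of the start, with a median of -65, and the 56 CHR matches lie nearer to it, with a median of -17.

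The 2 transcription factors of the list, which activate the others, were not called. Foxm1, the G2 activator, stood at 29.7, 15.1 and 8.40 CPM in steady state and at 0.980, 8.22, 1.18 and 9.52 CPM at day 12 (log2 fold change -1.84, SE 0.86, adjusted p = 0.186 in edgeR's quasi-likelihood test). Day 12 replicates 1 and 3 were near 1 CPM, while replicates 2 and 4 lay just below and above the lowest steady-state library. Mybl2, which encodes B-MYB, stood at 5.46, 3.78 and 1.66 CPM and at 0.742, 2.74, 0.737 and 2.58 CPM, with the same libraries low.

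Among the 8 cyclins, CDK1 and its activators and partners, the fitted log2 fold changes ran from -2.09 to -0.41. Cdc25b fell at day 12. It encodes a phosphatase that removes the inhibitory phosphates from CDK1 and starts entry into mitosis, and the table places it at chromosome 2, 131028869 to 131040417 on the plus strand in GRCm39. Its level was 31.8, 20.5 and 21.5 CPM in steady state and 3.13, 9.40, 3.92 and 9.46 CPM at day 12 (log2 fold change -1.93, SE 0.41, adjusted p = 0.0132 in edgeR's quasi-likelihood test). The groups did not overlap, and day 12 replicates 1 and 3 were again the low pair. Without steady-state replicate 1 its adjusted p was 0.0542 in the same edgeR test. With no filter on low counts it was 0.0601, and with the replicate number as a block 0.0682. Spef1 lies across 334 of its bases on the other strand with 625 reads in all, against 3444 for Cdc25b, and without a stated strand setting, reads of the pair may not be told apart.

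Ccna2, cyclin A2, stood at 39.3, 20.8 and 10.48 CPM and at 1.27, 15.7, 0.473 and 11.3 CPM (log2 fold change -1.71, SE 1.05, adjusted p = 0.303 in edgeR's test), and it overlaps Exosc9 on the other strand. Day 12 replicates 2 and 4 of Ccna2 lay above steady-state replicate 3. Ccnb2, cyclin B2, stood at 21.9, 12.2 and 9.23 CPM and at 0.530, 5.28, 0.158 and 7.63 CPM, and every day 12 library lay below every steady-state one, yet its adjusted p was 0.213 in edgeR's test. Ccnb1, the other B-type cyclin, reached 0.159, 4.499, 0.105 and 3.02 CPM at day 12 against 6.88, 3.81 and 3.77 CPM. Cdk1 itself, the kinase that these cyclins activate, stood at 17.0, 10.3 and 6.55 CPM and at 3.90, 10.9, 3.66 and 8.998 CPM, and its groups overlapped. Cks1b and Cks2, small proteins that bind CDKs, had the smallest fitted changes of the group, -0.52 and -0.41.

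No mitotic kinase was called. Plk4, which starts centriole duplication, came closest, at 14.1, 9.16 and 7.67 CPM and at 2.78, 8.07, 4.499 and 4.93 CPM (log2 fold change -1.02, SE 0.34, adjusted p = 0.0607 in edgeR's quasi-likelihood test). Its day 12 replicate 2 lay above steady-state replicate 3. Plk1, the kinase of spindle assembly and mitotic exit, stood at 11.2, 6.19 and 4.57 CPM and at 0.185, 4.40, 0.789 and 5.75 CPM, a 31.0-fold span between day 12 libraries. Aurka, which acts at the spindle poles, and Nek2, which acts at the centrosome, had fitted log2 fold changes of -1.07 and -1.62.

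The 4 genes of the chromosomal passenger complex, which corrects wrong attachments and guides cytokinesis, had the smallest median change of the 11 role groups, -0.62. Incenp, its scaffold, stood at 84.9, 60.5 and 58.5 CPM and at 45.5, 59.7, 44.3 and 57.2 CPM (log2 fold change -0.40, SE 0.16, adjusted p = 0.125 in edgeR's test). Steady-state replicates 2 and 3 and day 12 replicates 2 and 4 were at nearly the same level. Aurkb, the kinase of the complex, stood at 21.2, 11.8 and 7.35 CPM and at 4.08, 10.9, 3.97 and 10.9 CPM. Birc5, survivin, had 16.3, 8.74 and 4.95 CPM and 0.716, 7.36, 0.4998 and 5.22 CPM, so within 1 complex the low day 12 libraries kept most of Incenp and little of Birc5. Cdca8, borealin, had a fitted log2 fold change of -0.38 that became 0.18 without steady-state replicate 1.

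In the spindle assembly checkpoint, which holds anaphase until all chromosomes are attached, Bub3 differed from its partners. Bub3 stood at 66.6, 63.0 and 63.8 CPM and at 52.1, 54.7, 54.6 and 57.3 CPM, the narrowest span of all members in both groups, and every day 12 library lay below every steady-state one. Its log2 fold change of -0.24 (SE 0.09) had an adjusted p of 0.0837 in edgeR's quasi-likelihood test, and of 0.0176 without day 12 replicate 4. With any other library left out, the adjusted p of that test lay between 0.154 and 0.341. Bub1b, which encodes BubR1, stood at 27.7, 15.2 and 9.45 CPM and at 1.09, 10.6, 1.71 and 7.84 CPM with a fitted change of -1.72. BubR1 and Bub3 act in 1 complex, and their RNAs spanned 25.5-fold and 1.28-fold over the 7 libraries. Bub1, Mad2l1 and Ttk, the other checkpoint genes, had fitted changes of -1.14, -0.33 and -1.36, and that of Mad2l1 became 0.11 without steady-state replicate 1.

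Among 7 kinetochore and centromere genes, Cenpa fell at day 12. It encodes the histone H3 variant that marks centromeres, at chromosome 5, 30824121 to 30832174 on the plus strand in GRCm39. Cenpa stood at 27.1, 18.8 and 16.5 CPM and at 7.84, 13.9, 8.15 and 10.54 CPM, with no overlap between the groups (log2 fold change -1.04, SE 0.24, adjusted p = 0.0136 in edgeR's test). Without steady-state replicate 1 the adjusted p of that test was 0.0751, and with the replicate number as a block it was 0.0641. Cenpf, a kinetochore protein of late G2, stood at 27.9, 12.8 and 7.51 CPM and at 0.291, 9.98, 0.473 and 5.78 CPM. Its day 12 replicates 1 and 3 were under 0.5 CPM, whereas Cenpa kept several CPM in the same libraries. The outer kinetochore genes Ndc80, Nuf2, Spc24 and Spc25, whose proteins form the complex that grips microtubules, had fitted changes of -1.83, -1.98, -1.77 and -0.94, and Cenpe, a kinetochore motor, had -1.11.

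**Figure D4:**
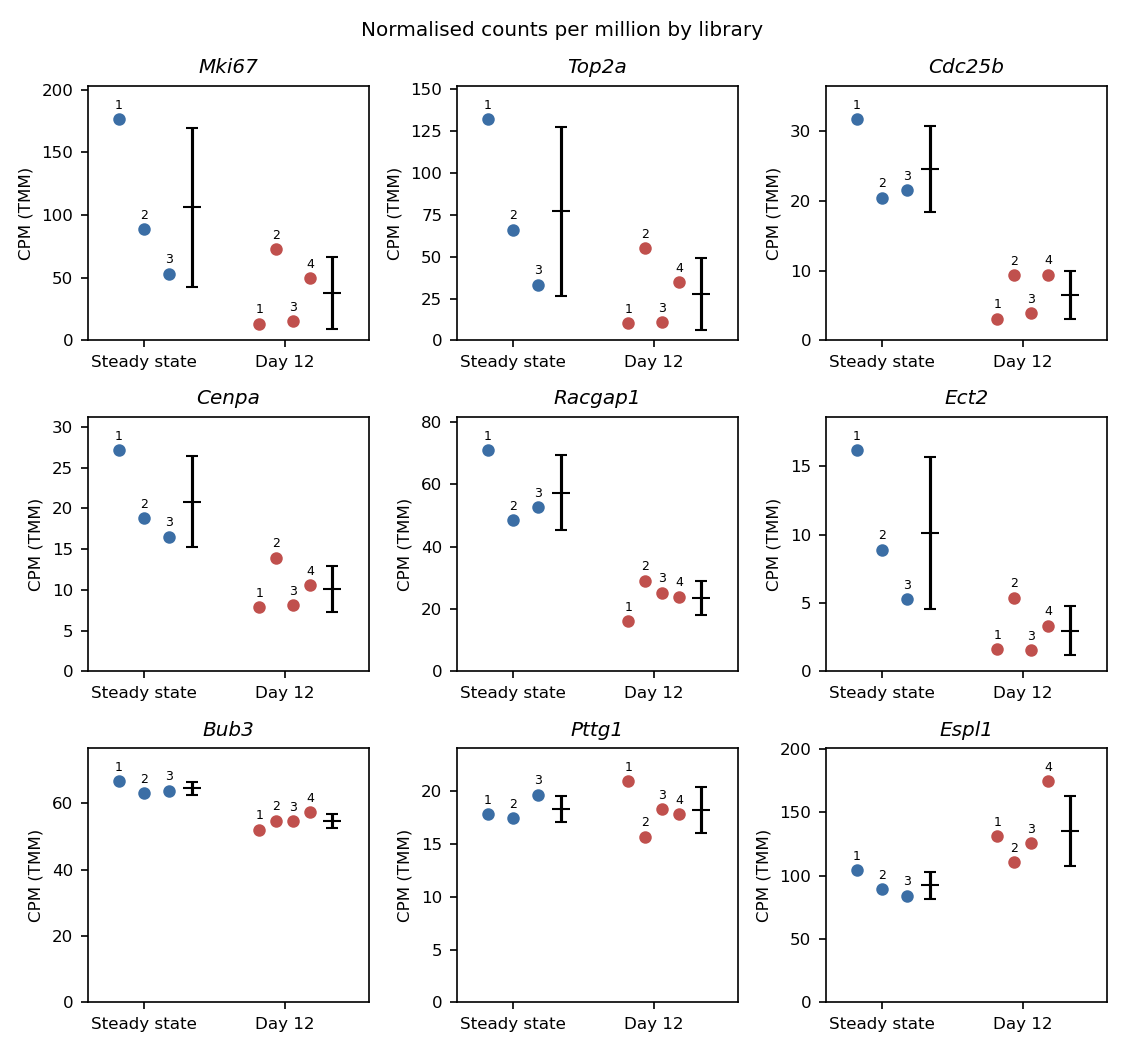
CPM after TMM scaling (vertical axis, from 0) of 9 genes by group, with 1 point per library, its replicate number above it and the mean ± SD beside the points. Racgap1, Cdc25b, Cenpa and Bub3 show groups that do not overlap with day 12 lower, Espl1 shows them with day 12 higher, and for Mki67, Top2a, Ect2 and Pttg1 the groups overlap.

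None of the 10 kinesin motors was called, and their fitted changes ran from -2.07 to -0.77 with a median of -1.70. Kif11, also known as Eg5, the motor that pushes the spindle poles apart, stood at 41.1, 19.3 and 9.61 CPM and at 1.51, 13.4, 1.92 and 8.82 CPM (log2 fold change -1.86, SE 0.83, adjusted p = 0.168 in edgeR's test). Kif23, the motor of the central spindle that works with the Racgap1 protein, stood at 34.5, 17.8 and 12.8 CPM and at 1.75, 10.6, 1.29 and 9.03 CPM. Every day 12 library of Kif23 lay below every steady-state one, and its adjusted p was 0.128 in edgeR's test. Kif2c, which takes microtubule ends apart, also had groups that did not overlap, at 10.47, 6.13 and 3.99 CPM and 0.133, 2.79, 0.105 and 3.51 CPM. Kif14 had 3 reads and Sgo1 2 reads in day 12 replicate 1, the 2 members with a library at or under 3 reads.

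The 5 spindle microtubule proteins had the lowest median of the role groups, -1.79, and none was called. Stmn1, stathmin, which destabilises microtubules, had the lowest fitted change of all members, at 40.96, 20.1 and 9.58 CPM and 0.662, 10.7, 0.658 and 6.33 CPM (log2 fold change -2.36, SE 1.00, adjusted p = 0.148 in edgeR's test). Its level in day 12 replicates 1 and 3 was under 1 CPM, and day 12 replicate 2 lay above steady-state replicate 3. Prc1, which bundles the central spindle, stood at 33.0, 15.8 and 9.42 CPM and at 1.80, 12.1, 1.53 and 8.85 CPM. Hmmr, a spindle-associated protein, stood at 15.7, 8.60 and 6.16 CPM and at 0.106, 5.76, 0.237 and 4.35 CPM, the widest span at day 12, with no overlap between the groups. Tpx2, a spindle assembly factor, and Nusap1, a microtubule-binding protein, had fitted changes of -1.56 and -1.79.

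Of the 7 condensin and chromosome genes, Mki67, the Ki-67 proliferation marker, stood at 176.5, 88.7 and 53.3 CPM and at 13.4, 72.7, 15.2 and 49.8 CPM (log2 fold change -1.49, SE 0.69, adjusted p = 0.178 in edgeR's quasi-likelihood test). Top2a, the topoisomerase that untangles sister chromatids, stood at 132, 66.2 and 33.1 CPM and at 10.3, 55.2, 11 and 34.9 CPM with a fitted change of -1.47. For both genes day 12 replicate 2 lay above steady-state replicate 3, and replicates 1 and 3 lay below every other library. Ncapg, a condensin I subunit, had the widest steady-state span, at 17.5, 7.67 and 3.74 CPM, and stood at 1.32, 6.63, 0.947 and 3.66 CPM at day 12. Smc4, the ATPase that both condensins share, did not follow the common day 12 order, at 92.7, 71.5 and 63.4 CPM and 64.7, 76.0, 71.3 and 47.2 CPM, with day 12 replicate 4 as its lowest library. Smc2, the partner of Smc4, stood at 39.9, 26.9 and 20.1 CPM and at 12.2, 24.4, 12.9 and 13.2 CPM, with only day 12 replicate 2 among the steady-state levels.

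The anaphase genes held the only member that rose. Espl1 encodes separase, the protease that cuts cohesin to part sister chromatids, and lies at chromosome 15, 102204701 to 102232792 on the plus strand in GRCm39. It stood at 104, 89.0 and 84.0 CPM in steady state and at 131, 110.3, 126 and 174 CPM at day 12, with no overlap (log2 fold change 0.55, SE 0.16, adjusted p = 0.0407 in edgeR's test). Day 12 replicate 4 was the highest. The call was lost without steady-state replicate 1, 2 or 3 (adjusted p of 0.0646, 0.146 and 0.162 in edgeR's test) and without day 12 replicate 1 or 3 (0.0687 and 0.0522). Pttg1 encodes securin, which holds separase inactive, and it stood at 17.8, 17.4 and 19.6 CPM and at 20.9, 15.7, 18.3 and 17.8 CPM, a log2 fold change of -0.01 with an SE of 0.12.

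Neither gene followed the order of the day 12 libraries seen in most members. Cdc20, which activates the anaphase-promoting complex, did follow it, at 12.7, 6.81 and 7.12 CPM and 0.212, 4.42, 0.7103 and 5.46 CPM with no overlap between the groups. Ube2c, the ubiquitin-conjugating enzyme of that complex, stood at 19.2, 10.2 and 9.04 CPM and at 1.06, 8.14, 1.08 and 9.93 CPM. Sgo1, shugoshin, which protects centromeric cohesin, stood at 7.12, 3.84 and 2.27 CPM and at 0.0530, 2.11, 0.289 and 1.57 CPM, again without overlap.

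In cytokinesis, 2 of 3 genes were called lower, against 10.2% of all genes tested. Racgap1, a component of the centralspindlin complex that places the cleavage furrow, lies at chromosome 15, 99518377 to 99549537 on the minus strand in GRCm39. Its level was 71.0, 48.4 and 52.6 CPM in steady state and 16.1, 29.1, 25.2 and 24.0 CPM at day 12 (log2 fold change -1.28, SE 0.20, adjusted p = 0.00248 in edgeR's test). The groups did not overlap, and the day 12 libraries spanned only 1.81-fold. The call was kept when any 1 library was left out and lost with the replicate number as a block (adjusted p of 0.0759 in that edgeR fit). Ect2, the exchange factor that activates RhoA at the furrow and binds centralspindlin, lies at chromosome 3, 27151371 to 27208027 on the minus strand. Its level was 16.2, 8.91 and 5.30 CPM and 1.62, 5.38, 1.55 and 3.34 CPM (log2 fold change -1.77, SE 0.51, adjusted p = 0.042 in edgeR's test), and day 12 replicate 2 lay just above steady-state replicate 3. The Ect2 call was lost without steady-state replicate 1 or 2 (adjusted p of 0.164 and 0.089 in that test). The same held without day 12 replicate 1, 3 or 4 (0.0865, 0.0712 and 0.0958) and with library totals in place of TMM (0.0515). It was also lost with no filter on low counts (0.141 in that test) and with the replicate number as a block (0.0938). Anln, anillin, the scaffold of the contractile ring, stood at 36.4, 19.3 and 11.9 CPM and at 4.56, 17.1, 5.498 and 12.4 CPM with a fitted change of -1.19.

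Levels of different genes can be set side by side only per length. On merged exons of the GRCm38 annotation GENCODE M21, steady-state means ran from 0.29 CPM per kb for Cdc25c to 15.7 for Incenp and 14.6 for Smc4, followed by Stmn1 at 12.3, Mki67 and Espl1 at 10.6 each, Ccnb2 at 9.43, Bub3 at 9.21 and Pttg1 at 9.14 CPM per kb. At day 12, Espl1 led at 15.5 CPM per kb, followed by Smc4 at 12.4, Incenp at 11.9, Pttg1 at 9.09 and Bub3 at 7.8, while Mki67 stood at 3.76, Stmn1 at 2.39 and Ccnb2 at 2.22. The genes with narrow spans thus stood at the head of the day 12 order.

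Genes outside the list were compared with it by library. The 57 other mitosis genes, such as kinetochore and spindle genes, had a median log2 fold change of -1.29. Against 10.2% and 10.1% of all genes tested, 4 of them were called lower and none higher. Among the 2 with the lowest p, Mis18a, a centromere licensing factor, and Psrc1, a spindle protein, the fitted changes were -0.47 and -1.99, and the other calls, named after their values were seen, were Knstrn (-1.69) and Ncaph2 (-0.40). Day 12 replicates 1 and 3 lay below replicates 2 and 4 for 50 of the 57. The 41 DNA replication genes had a median of -0.58 with none called (edgeR's unadjusted p was under 0.05 with a lower level for 4, against 17.1% of all genes tested), and 33 of the 41 showed the same order.

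The day 12 libraries lay less far below steady state in the replication genes. With 0.5 CPM added, the middle replication gene stood at 41%, 90.8%, 40.9% and 77.9% of its steady-state mean in the day 12 libraries, against 15.4%, 67.5%, 17.3% and 54.5% for the middle member of the 60. This difference between the lists was not tested.

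**Figure D5:**
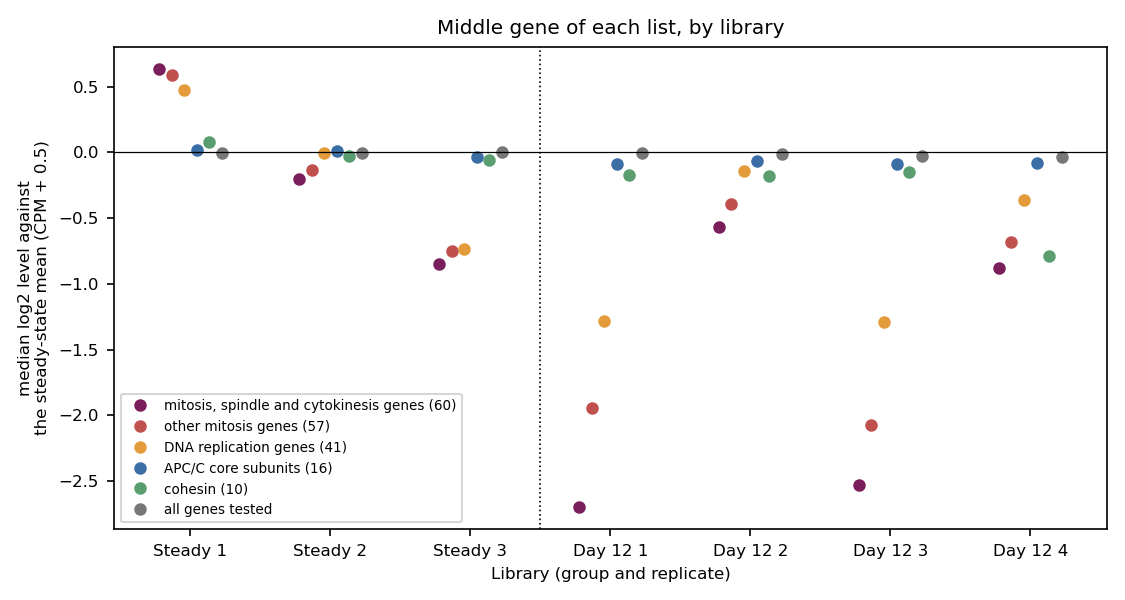
Median log2 level against the steady-state mean (vertical axis, 0.5 CPM added) of each gene list in each library (horizontal axis). The mitosis, other mitosis and replication lists move together, lowest in day 12 replicates 1 and 3, while the middle APC/C gene stays between 93.9% and 101% of its steady-state mean.

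The 16 core subunits of the anaphase-promoting complex (APC/C), which is needed outside mitosis too, had a median of -0.10. Against 10.1% of all genes tested, 1 of the 16 was called higher. That gene was Anapc15 (1.08, adjusted p = 0.00783 in edgeR's test), at 11.9, 11.4 and 9.61 CPM and 24.2, 15.5, 31.1 and 22.0 CPM, and the next by p was Anapc13 (0.31). Of 10 cohesin genes, 3 were called lower, against 10.2% of all genes tested. The 3 included Rad21, the subunit that separase cuts, at 153, 143 and 128 CPM and 87.9, 104, 97.3 and 74.4 CPM (-0.64, adjusted p = 0.00861), and Pds5b (-0.68, adjusted p = 0.0213 in the same edgeR test). Stag1 (-0.50) was the third, named after its values were seen. The cohesin subunit Rad21 was thus called lower and the separase gene Espl1 higher. None of the 15 genes of the DREAM and MuvB complexes, RB family and NF-Y was called, 4 had an unadjusted p under 0.05 with a lower level in edgeR's test (17.1% of all genes tested did), and the lowest p were those of Rbbp4 (-0.32) and Lin9 (-0.55).

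Of 12 G1 cyclin and E2F genes, Cdk6, a kinase partner of the D cyclins, was called higher (0.64, adjusted p = 0.0154 in edgeR's test), and Ccne2, cyclin E2, had -1.62 with no call. In all 12, day 12 replicates 1 and 3 lay below replicates 2 and 4. Ccnd1, cyclin D1, named after its values were seen, stood at 218, 231 and 109.6 CPM and at 13.2, 87.9, 5.89 and 71.6 CPM and so shared the low pair of libraries. Of 7 CDK inhibitor genes, 3 were called lower and 1 higher, against 10.2% and 10.1% of all genes tested. The lower ones included Cdkn2b at -1.74 (adjusted p = 0.00179) and Cdkn2c at -1.36 (adjusted p = 0.00193 in edgeR's test). Named after their values were seen, the third lower one was Cdkn1c (-1.61), and Cdkn2d (0.57) was called higher.

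Markers of other cells were read in the same libraries. The summed level of 7 monocyte markers was 455.8 to 811.2 CPM in steady state and 34610, 8278, 41860 and 8017 CPM at day 12, nearly all of it Chil3 (whose reads may be shared with the near-identical Chil4), so that day 12 replicates 1 and 3, lowest in mitosis genes, were highest in Chil3. Of the other 6, 5 (Ly6c2, Ccr2, Plac8, Vcan and Hp) stood lower in replicates 1 and 3 than in 2 and 4, and the defining Ly6c2 was between 0.053 and 0.7546 CPM at day 12. The sum of 10 B cell markers was 7.367 to 11.66 CPM and then 27.43, 55.55, 26.04 and 24.03 CPM, highest in the library that led most mitosis genes. At day 12, 6 of the 10 were called higher, against 10.1% of all genes tested. The sum of 10 T and NK cell markers was 0.5322 to 1.127 CPM and then 0.8215, 3.393, 1.315 and 2.177 CPM. What part these cells had in the levels of the mitosis genes was not tested.

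The sum of 10 neutrophil markers was 431.7 to 448.1 CPM in steady state and 110.0 to 199.1 CPM at day 12, mostly Csf3r. Intestinal epithelial markers summed to 0.112 to 0.3559 CPM and 2.086 to 3.135 CPM, and 8 of the 10, among them Epcam, Krt8, Cdx2 and Vil1, were under 0.1 CPM in every library. Erythroid markers summed to 0.9804 to 1.69 CPM and 0.1578 to 1.161 CPM, and mesothelial and fibroblast markers to at most 0.2236 CPM in steady state and 1.158 to 1.48 CPM at day 12. Dendritic cell markers summed to 33.57 to 59.47 CPM and to 188.3, 93.9, 394.4 and 70.18 CPM. Nearly all of the latter was Cd209a, at 171.6, 83.62, 372.6 and 59.27 CPM, while Ccr7 and Dpp4 stood lower in day 12 replicates 1 and 3 than in 2 and 4, and Flt3 and Xcr1 were at most 0.1508 CPM. Mast cell and eosinophil markers summed to 1.789 to 1.849 CPM and 1.5 to 3.016 CPM.

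Some values may hold reads of a neighbour. Genes with at least 100 reads lie on the other strand across Ccna2, Cdc25b, Cdc25c, Cdca8, Kif4, Kif11, Kif20a, Nusap1, Prc1, Ncapg and Cdc20, and a processed pseudogene lies on the same strand within Kif11. The cyclin B1 pseudogene Ccnb1-ps had 311 reads and Ccnb2-ps had 33 over the 7 libraries, so reads shared with Ccnb1 and Ccnb2 are uncertain.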

How the data were processed

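RNA-seq of Tim4+ resident peritoneal macrophages was measured in 3 steady-state and 4 day 12 libraries, grouped by the sample titles. The authors deposited raw, unnormalised counts of reads for each gene in a single table. Per the labels' protocols the libraries were poly-A selected, directional and read as single reads. The submitters' processing notes name the build GRCm39, STAR 2.7.11a, featureCounts in Subread 2.0.6, and also FastQC, SAMtools 1.10 and DESeq2 1.40.2. Not given in the sources used here were the strand setting, the release of the annotation and how reads with several matches were counted, which bear on overlapping genes and near-identical copies.

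From these counts edgeR 4.0.16 (R 4.3.3) fitted all genes with a robust quasi-likelihood model and TMM factors, after filterByExpr with a minimum count of 10 and a minimum total of 15. Benjamini-Hochberg adjustment ran over the 15981 genes left, and a gene was called at an adjusted p under 0.05. The code was tested on simulated data. Totals of 32077050 to 38586694 counts set a floor of 3 counts at 0.0777 to 0.0935 CPM. Alternatives were library totals, upper-quartile factors, no filter, at least 1 CPM in 3 or more libraries, a replicate block, each library left out, DESeq2 1.42.0 and limma-voom (limma 3.58.1). Promoter windows came from RefSeq (GRCm38.p6) and were matched by symbol, while gene coordinates came from the deposited table (GRCm39).

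Values in every library are given for Mki67, for the 2 members of each role group with the highest mean CPM, for every called member and for the members with the smallest and largest steady-state spread. Of every other list the 2 genes with the lowest p are named. A marker gene is not reported here and was left out of its list. Further members and 3 further promoters were added after their values were seen. The members and lists were chosen with earlier results of these data known.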

Additional observations from a re-analysis of the deposited data

Results flagged for a closer look

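Among 93 sets of 4 day 12 libraries, 3 held 1 library set far apart from the other 3, by Dixon's ratio of the gap to the whole range against its 95% critical value. Chance alone marks about 1 in 20 such sets. Spc25, a kinetochore gene, had a ratio of 0.929, with day 12 replicate 2 at 4.98 CPM and the other 3 between 1.78 and 2.00 CPM. Smc2, the condensin ATPase, had a ratio of 0.919, with the same replicate at 24.4 CPM and the others between 12.2 and 13.2 CPM. The summed CPM of the 10 cohesin genes had a ratio of 0.945, with day 12 replicate 4 at 724.6 CPM and the others between 987.6 and 1003 CPM.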

How the results depend on the processing

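Over 14 alternatives to the fit and 60 genes, 831 of 840 fitted changes kept their sign, and 794 kept both sign and side of the threshold. The 9 that turned belong to 3 genes. Without steady-state replicate 1, Cdca8 turned to 0.18 and Mad2l1 to 0.11, and without steady-state replicate 3 they stood at -0.65 and -0.62. Pttg1, at -0.01, turned to 0.01 with library totals, 0.03 with upper-quartile factors, 0.03 with the filter at 1 CPM, 0.04 without steady-state replicate 3, 0.08 without day 12 replicate 2 (-0.07 without day 12 replicate 1), and 0.00 without day 12 replicate 4 and in DESeq2. The number of the 60 genes called lower, 4 in edgeR's quasi-likelihood test, was 2 with no filter on low counts, 8 in DESeq2 and 11 in limma-voom. These were 3.33%, 13.3% and 18.3% of the 60, against 5.92%, 12.3% and 10.9% of all genes in the same fits, so the share was above the table's in DESeq2 and limma-voom. With 1 library left out it ran from 1 (without steady-state replicate 1) to 9 (without day 12 replicate 2), the number called higher was 0 or 1, and the median log2 fold change ran from -1.92 to -0.90. Over all genes, leaving out 1 library gave 1761 to 4599 calls, 857 to 2188 of them higher and 904 to 2411 lower, with the lowest counts after leaving out a steady-state library. The cause of these shifts was not tested. The labels do not say whether equal replicate numbers mark a shared day or animal. Deviations of same-numbered libraries correlated at -0.141, 0.00775 and 0.203, and replicate 3 alone correlated best with its own number. These 3 values cannot decide whether the samples were paired. With the replicate block, day 12 replicate 4 has no partner and so adds nothing to the fitted change. In that edgeR fit 1 of the 60 genes was called lower (Bub3), which was 1.67% against 14.3% of all genes tested. Espl1 was called higher, as were 1989 of the 15981 genes tested. The 4 lower calls of the main fit were lost there, with adjusted p of 0.0682 (Cdc25b), 0.0641 (Cenpa), 0.0938 (Ect2) and 0.0759 (Racgap1). The counts of genes by order of libraries were recomputed with library totals and with upper-quartile factors, alternatives chosen after seeing the data: 56 genes again had day 12 replicates 1 and 3 below 2 and 4, and 59 had steady-state replicate 1 highest of its group. At a floor of 3 reads, depth limits Kif14 and Sgo1 in day 12 replicate 1. Just above it, Hmmr and Kif4 held 4 reads in day 12 replicate 1, and Ccnb1, Kif2c, Kif14 and Kif18b 4 reads in day 12 replicate 3. Wide day 12 spans such as the 54.3-fold of Hmmr thus rest on few reads in the lowest library. The design of 3 against 4 libraries and their wide spread limit the rest.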
